A study of Rattus norvegicus with 23 samples.

Results

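Atp1b4, Rab15, Sbk2 and Fam163a are 4 of the 16544 genes that could be named on a rat array. They were chosen by their signal in these same data, in which the left atrium (LA) exceeded the ventricles by about 6 log2 units or more, so the difference between LA and the ventricles is given here as a description without a test. The genes were found through the transcript accessions of 5 probes, 2 for Atp1b4 and 1 for each of the other genes. Levels are log2(signal + 1) of the deposited normalized signal, with the highest probe of a gene taken on each array.

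RNA of heart and vessel tissue was hybridized to 23 single-color arrays, 4 each of LA, left ventricle (LV), sinoauricular node (SA), pulmonary vein (PV) and pulmonary artery (PA) and 3 of right ventricle (RV). The 7 arrays of LV and RV together are called V. The donors were 12 Wistar rats, all male and 8 to 11 weeks old, with no genetic change or treatment under study, and they were given pentobarbital sodium and heparin before the heart and lungs were removed. LA was the part next to PV, RV was the free wall, and the SA region of 2 rats made 1 sample. LV samples were 3 to a ventricle, so LV arrays may share an animal, in which case the SD of LV and V understates the spread between animals. The labels do not tie the other samples to single animals, so p-values measure only the spread between these samples, and in bulk tissue fewer cells of a type and less RNA per cell cannot be told apart.

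Atrial and ventricular muscle share the contractile machinery of the heart but differ in other genes. Among these are the genes of the atrial myosin light chain Myl7, of the calcium pump inhibitor sarcolipin (Sln) and of atrial natriuretic peptide (Nppa). Muscle cells of atrial kind also extend as a sleeve into the wall of the rodent pulmonary vein and surround the pacemaker cells of SA, whereas PA is a vessel whose wall is mainly smooth muscle. Atp1b4 encodes betaM, a relative of the beta subunits of the Na,K- and H,K-ATPases that in placental mammals resides in the inner nuclear membrane of muscle and binds the transcriptional coregulator SNW1. Rab15 encodes a small GTPase of endosomal recycling that was first described in brain. Sbk2 encodes a serine/threonine kinase of the SH3 domain-binding kinase family, and Fam163a a small protein first described in neuroblastoma.

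The 4 genes lie on 4 chromosomes and were chosen by their difference between LA and V. Their promoters are shown as a description. Each sequence runs 5′ to 3′ on the strand of its gene, from 250 bases before the transcript start to 50 after it, in RefSeq's GRCr8 assembly of the rat genome. Atp1b4 lies on the plus strand of chrX:121952727-121953026, Rab15 on the minus strand of chr6:101257034-101257333, Sbk2 on the plus strand of chr1:77902742-77903041 and Fam163a on the minus strand of chr13:70891267-70891566. Capitals mark matches, on either strand, to 6 short motifs of factors used in cardiac or basal transcription.

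Atp1b4: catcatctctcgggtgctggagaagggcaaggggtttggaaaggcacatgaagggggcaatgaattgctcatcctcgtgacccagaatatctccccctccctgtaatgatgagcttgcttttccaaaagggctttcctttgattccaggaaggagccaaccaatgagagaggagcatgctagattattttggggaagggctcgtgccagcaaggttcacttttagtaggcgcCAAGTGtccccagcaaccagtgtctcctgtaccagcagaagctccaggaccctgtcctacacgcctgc
Rab15: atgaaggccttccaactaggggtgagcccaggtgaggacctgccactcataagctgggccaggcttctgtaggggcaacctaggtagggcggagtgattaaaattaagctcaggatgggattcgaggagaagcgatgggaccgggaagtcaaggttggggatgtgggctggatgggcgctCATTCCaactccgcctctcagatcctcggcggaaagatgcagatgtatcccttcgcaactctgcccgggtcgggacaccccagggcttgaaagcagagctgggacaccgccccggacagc
Sbk2: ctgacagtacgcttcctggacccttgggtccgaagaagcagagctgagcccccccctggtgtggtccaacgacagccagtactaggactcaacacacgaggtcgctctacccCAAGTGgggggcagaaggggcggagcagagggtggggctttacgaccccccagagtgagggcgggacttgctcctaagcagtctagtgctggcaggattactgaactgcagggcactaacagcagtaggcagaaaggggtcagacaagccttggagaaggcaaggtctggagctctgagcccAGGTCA
Fam163a: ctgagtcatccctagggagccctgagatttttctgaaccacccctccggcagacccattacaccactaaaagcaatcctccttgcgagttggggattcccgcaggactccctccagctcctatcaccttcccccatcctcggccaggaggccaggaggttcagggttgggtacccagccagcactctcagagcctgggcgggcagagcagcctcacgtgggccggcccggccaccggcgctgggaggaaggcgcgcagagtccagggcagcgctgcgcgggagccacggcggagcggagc

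No motif of the 6 was present in all 4 windows. CAAGTG, the core bound by NKX2-5, was found in Atp1b4, 18 bases before the start, and in Sbk2, 138 bases before it, and in 14.1% of 33469 RefSeq promoters of this length. CATTCC, the TEAD core, was found only in Rab15 among the 4 windows, 70 bases before the start, against 14.2% of all promoters. AGGTCA, a site of NR2F and other nuclear receptors, was found only in Sbk2 among the 4, 44 bases after the start, against 16.2%. The GATA factor core AGATAA, present in 11.6% of all promoters, had no match in the 4 windows. The T-box core AGGTGT, present in 13.6%, and the basal promoter element TATAAA, present in 14.2%, had none either. The GC content was 53.0% for Atp1b4, 59.3% for Rab15, 60.3% for Sbk2 and 66.3% for Fam163a, all above the median promoter at 51.7%. A match of these letters is a description of the sequence, and binding was not measured.

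The tissues carried the markers of their labels in most respects. The ventricular transcription factor Irx4 was between 12.21 and 12.62 on the V arrays and at most 6.32 on any other array, and the pacemaker factor Shox2 was highest in SA, from 11.30 to 11.55, followed by PV, from 10.91 to 11.16. Of the 10 atrial markers, Myl4 was as high in V (mean 17.81 ± 0.15, SD, n = 7) as in LA (17.74 ± 0.24, SD, n = 4), and Bmp10 was well above background on 1 of 4 LA arrays. All 7 measured genes of the cardiomyocyte list were well above background on every array, PA included. Their summed signal was 1597748 to 1969428 in LA, 2164557 to 2564867 in LV, 1981367 to 2493218 in RV and 134705 to 211617 in PA. Each of 2 arrays stood apart by some of the atrial markers. On PA replicate 1 the atrial myosin-binding gene Mybphl was at 10.28, against 6.13 to 7.26 on the other PA arrays, and Sln was at 10.76, against 6.20 to 7.93. On RV replicate 2 Mybphl was at 9.09, against 5.91 to 6.65 on the other V arrays, and Sln was at 10.66, against 6.44 to 8.91. The adipocyte gene Adipoq was at 7.79 there, against 3.02 to 4.97. Myl7 (15.57) and Nppa (11.80) lay within the range of the other V arrays, of which LV arrays formed the top. Among the RV arrays alone, replicate 2 was the highest for both, with 10.70 and 10.38 on the others for Nppa and 15.20 and 13.99 for Myl7.

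Atp1b4 showed the widest gap of the 4 genes between LA and V in the normalized signals. Its log2 signal in LA was 11.96, 11.71, 12.21 and 11.87 on replicates 1 to 4. In LV it was 4.74, 3.15, 2.94 and 3.78, and in RV 4.07, 4.72 and 3.20. It was well above background on LV replicate 1 and on none of the other 6 V arrays. LA averaged 11.94 ± 0.21 (SD, n = 4), whereas V averaged 3.80 ± 0.74 (SD, n = 7), a log2 difference of 8.14, so that V held 0.355% of the LA signal. Normexp background correction was applied here to the scanner values with an offset of 50 and was followed by quantile normalization. After it the log2 difference was 5.29, below those of Rab15 (5.56) and Sbk2 (6.0). With the dim arrays set to the lowest signal well above background on them, the difference was 7.52.

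The other regions with atrial muscle carried more Atp1b4 than LA itself. SA had 13.23, 13.05, 13.16 and 13.18, and PV had 12.67, 12.85, 12.62 and 12.44. Every SA array lay above every PV array, and every PV array lay above every LA array, with means of 13.15 ± 0.08 in SA and 12.64 ± 0.17 in PV (SD, n = 4 each). SA exceeded LA by 1.21 log2 units, a fold of 2.32, and PV exceeded LA by 0.71. Over all genes tested, 9.62% had every SA array above every LA array and 8.11% every PV array above every LA array. The summed signal of the cardiomyocyte list was also higher in SA (2372366 to 2628913) and PV (2182828 to 2351800) than in LA (1597748 to 1969428), as was that of the smooth muscle list (106903 to 135447, 129547 to 165713 and 63474 to 78012) and of the adipocyte list (13285 to 24643, 14248 to 21039 and 6932 to 12588). The Schwann cell list was at 2480 to 3077 in SA and 4975 to 6925 in PV against 1573 to 2356 in LA. The sums of the pacemaker, autonomic neuron and skeletal muscle lists were also higher on every SA and PV array than on any LA array, and that of the mesothelium list was lower. The part of these lists in the differences of the 4 genes from LA was not tested. PA resembled V, with 5.55, 4.19, 4.54 and 4.26, and was well above background on replicates 1 and 3. Both lay in row 1 of the slides, where the lowest signal well above background was 3.10 to 4.14. Replicates 2 and 4 lay in row 2, where it was 4.15 to 5.47. The 2 probes of Atp1b4 differed in brightness by 2.85 to 3.08 log2 units on the LA arrays, by 3.08 to 3.53 on the SA arrays and by 2.65 to 3.42 on the PV arrays, and both had the order LA, PV, SA of the means, which was 8.97, 9.50 and 9.92 for the dimmer probe.

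Rab15 had nearly the same mean in SA and PV and was low in V. LA had 12.39, 12.73, 13.01 and 12.44, SA had 13.03, 12.96, 13.05 and 13.00, and PV had 13.20, 12.93, 12.86 and 13.08. The mean of 12.64 ± 0.29 in LA was 0.37 below SA (13.01 ± 0.04) and 0.38 below PV (13.02 ± 0.15; SD, n = 4 each), and the arrays of the 3 regions overlapped. LV had 6.47, 5.53, 4.82 and 5.75, and RV had 5.22, 6.30 and 4.60, with 6 of the 7 V arrays well above background and LV replicate 4 not. The V mean was 5.53 ± 0.71 (SD, n = 7), 7.11 below LA, which is 0.723% of the LA signal.

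Rab15 was measured by 10 spots of the same probe on each array, which gives the precision within an array. The SD between spots was 0.05 to 0.10 log2 units on the LA, SA and PV arrays, 0.12 to 0.26 on the PA arrays and 0.19 to 1.15 on the V arrays. On LV replicate 4, where the SD was 1.15, only 2 of the 10 spots were well above background, and the highest spot was at 8.86. On RV replicate 2 all 10 spots were well above background, with a mean of 6.30. PA had 7.20, 7.09, 7.04 and 6.57, with all 10 spots well above background on each array. The PA mean of 6.97 ± 0.28 (SD, n = 4) was 1.44 above V (0.58 after normexp background correction), and the lowest PA array, at 6.57, lay just above the highest V array, at 6.47. All PA arrays exceeded all V arrays for 23.9% of the genes tested.

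Sbk2 kept a measurable signal in the ventricles. LA had 13.44, 13.99, 14.24 and 13.97, and the highest regional mean of this gene, 13.91 ± 0.34 (SD, n = 4). LV had 8.04, 7.80, 6.81 and 6.73, and RV had 7.80, 7.13 and 7.42. All 7 V arrays were well above background, and their mean of 7.39 ± 0.52 (SD, n = 7) was 6.52 below LA, or 1.09% of the LA signal. Sbk2 was thus low but not at background in the ventricles. SA had 13.30, 13.15, 12.51 and 12.64, and PV had 12.82, 12.75, 12.55 and 12.35. Every SA and PV array lay below every LA array, with a mean difference of -1.01 log2 units in SA and -1.29 in PV. Over all genes, 12% had every SA array and 9.45% every PV array below every LA array.

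PA was the lowest region for Sbk2. Its arrays had 5.93, 5.06, 3.80 and 3.39, and replicate 1 was the only PA array well above background. Every PA array lay below every V array, and the mean of 4.54 ± 1.16 (SD, n = 4) was 2.85 below V. Most PA arrays were not well above background, and after normexp background correction Sbk2 differed between PA and V by -1.27. A complete separation in this direction was found for 22.3% of all genes. Atp1b4, Rab15 and Fam163a had their lowest regional mean in V.

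Fam163a exceeded the background clearly on none of the 7 V arrays. LV had 3.36, 4.0, 4.57 and 3.62, and RV had 3.41, 3.67 and 2.63. LA had 10.13, 9.97, 9.46 and 9.90, with a mean of 9.86 ± 0.29 (SD, n = 4). Each V array was set to its measured signal or to the lowest signal well above background on it, whichever was higher. Against these values LA was 48.6-fold higher, PV 33.6-fold higher and SA 21.3-fold higher. The measured V mean was 3.61 ± 0.60 (SD, n = 7), 6.25 below LA. After normexp background correction the log2 difference of LA from V was 3.40. Over the processing alternatives the difference of PV from V was as low as 2.98 and that of SA from V as low as 2.4. PV had 9.10, 9.54, 9.08 and 9.60, and SA had 9.04, 8.19, 8.77 and 8.71. The order LA, PV, SA had overlap between LA and PV, whereas PV and SA were separated by 0.04 at their nearest arrays.

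**Figure D1:**
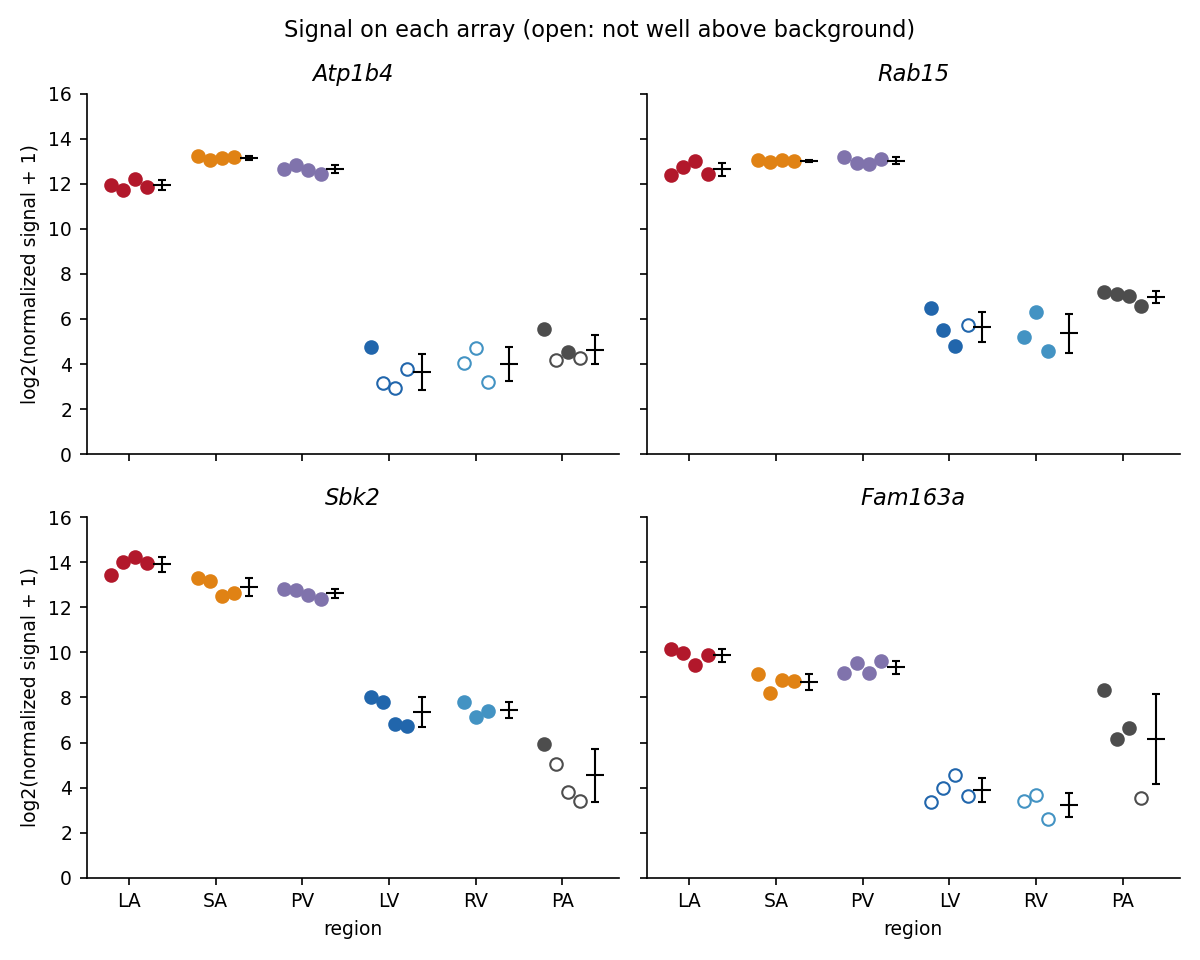
Log2(normalized signal + 1) of Atp1b4, Rab15, Sbk2 and Fam163a on each array of LA, SA, PV, LV, RV and PA, with open circles where the gene was not well above background and the mean and SD of each region beside the points. LA, SA and PV lie far above LV and RV for each gene, and PA lies near the ventricles for Atp1b4 and Rab15, below them for Sbk2, and between 3.54 and 8.34 for Fam163a.

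The plot of the levels by region shows that all arrays of LA, SA and PV lay above all V arrays for each of the 4 genes, a separation that the choice of the genes fixed for LA. Over all genes tested, 5.2% had all arrays of these 3 regions above all V arrays, and 2.13% also above all PA arrays. Atp1b4, Rab15 and Sbk2 met the latter condition, and Fam163a did not, because PA replicate 1, at 8.34, lay above SA replicate 2, at 8.19.

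Among the 11949 genes well above background on every LA array, the 4 genes took ranks 3, 4, 6 and 7 of the difference between LA and V in the normalized signals. Mybphl (10.48) and Sln (10.18) lay above them. Fam163a was at 6.25, and the next were Gpr15lg at 5.86 and Aldh1b1 at 5.60. The place of Fam163a rests on V signals that were not well above background, and with these raised to the lowest signal well above background its difference was 5.60. The choice of the genes by this difference fixed these ranks, which are given as a description.

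Atp1b4 and Sbk2 went opposite ways within the atrial regions, as the plot of deviations from the LA mean shows. Atp1b4 and Rab15 had their highest mean in SA or PV, while Sbk2 and Fam163a had theirs in LA. Atp1b4 in SA was 232% and Sbk2 in SA 49.6% of the respective LA signal. Fam163a was at 43.9% in SA and at 69.1% in PV. LA arrays had entered the choice of the genes, so these differences were not tested. They were positive for Atp1b4 and negative for Sbk2 within each of the 3 slides and each of the 2 rows of arrays, from 0.93 to 1.34 and from -1.46 to -1.01 over the slides for SA. Rab15 in SA differed from LA by -0.02 to 0.61 over the slides, and its arrays overlapped those of LA, so it had no clear order. Fam163a was below LA on each slide in SA (-1.34 to -0.84) and in PV (-0.82 to -0.14), where its arrays overlapped those of LA.

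**Figure D2:**
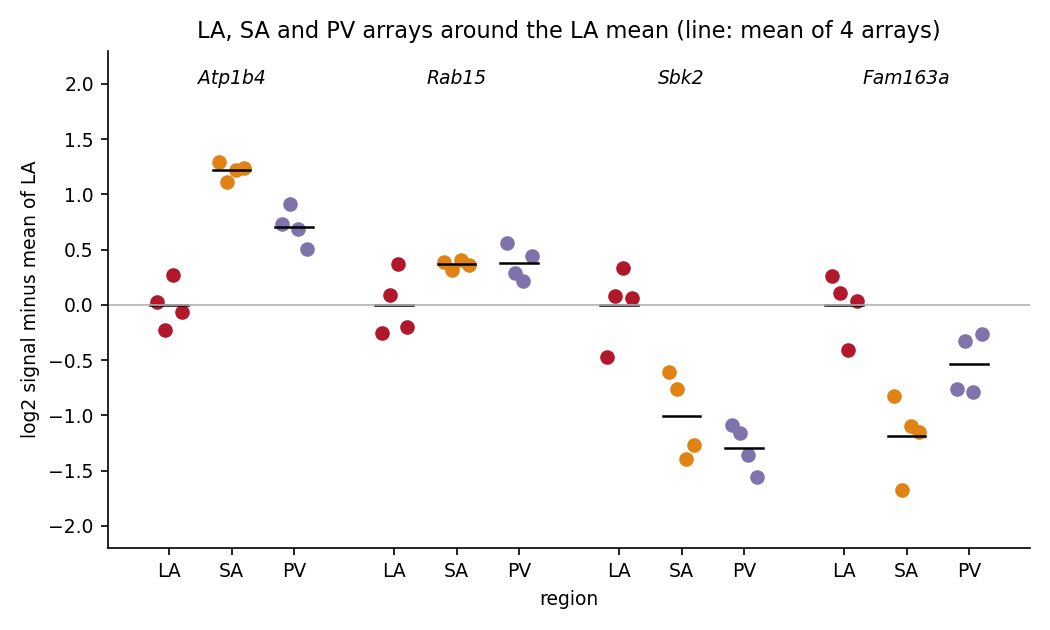
Log2 signal of each LA, SA and PV array minus the mean of the 4 LA arrays of the same gene, with a line at the mean of each region. Atp1b4 lies above 0 in SA and PV, Rab15 slightly above, and Sbk2 and Fam163a below.

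SA and PV can be compared by a test because neither entered the choice of the genes. No difference between them was called for the 4 genes, and none had an unadjusted p below 0.05, in limma's moderated test with Benjamini-Hochberg adjustment over 16089 genes, in which 3.49% of all genes were called. Atp1b4 was 0.51 higher in SA (95% interval -0.23 to 1.24; adjusted p = 0.544), with every SA array above every PV array, as for 5.23% of all genes. After normexp background correction, with its offset and quantile normalization, this difference passed the test (0.43, adjusted p = 0.0382). The intervals use a spread estimated from all 6 regions, dim arrays included, with an SE of 0.35 for Atp1b4, whereas a fit of the SA and PV arrays alone gave an SE of 0.10 (adjusted p = 0.0858). Rab15 differed by -0.01 (interval -0.65 to 0.63; adjusted p = 0.99) and Sbk2 by 0.28 (interval -0.60 to 1.17; adjusted p = 0.826). Fam163a was 0.65 lower in SA (interval -1.95 to 0.64; adjusted p = 0.684), with every SA array below every PV array, as for 5.95% of all genes. The interval for SA over PV reached up to 1.55-fold for Rab15, 2.24-fold for Sbk2 and 2.37-fold for Atp1b4. The summed signal of the autonomic neuron list was 1476 to 2258 in SA and 2140 to 20419 in PV. That of the cardiomyocyte list was higher in SA (2372366 to 2628913 against 2182828 to 2351800). The same held for the pacemaker list (6951 to 8011 against 4811 to 5684) and the skeletal muscle list (174757 to 190415 against 151135 to 160329). The Schwann cell list was lower in SA (2480 to 3077 against 4975 to 6925). The part of these lists in the differences between SA and PV was not tested.

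LV and RV arrays had entered the choice of the genes, so their differences are given without a test, in a comparison in which 0.522% of all genes were called. The log2 difference was -0.34 for Atp1b4, 0.27 for Rab15, -0.11 for Sbk2 and 0.65 for Fam163a. LV and RV arrays overlapped for each gene. For Fam163a no array of LV or RV was well above background, and for Atp1b4 1 LV array was, so these 2 differences compare signals near the background.

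The array-by-array view of the low regions gives the order of the V arrays, which for Atp1b4 and Fam163a is mostly one of signals not well above background. LV replicate 1 was the highest V array for Atp1b4 (4.74), Rab15 (6.47) and Sbk2 (8.04), but not for Fam163a (3.36). RV replicate 2, which stood apart by Mybphl and Sln, was the second highest for Atp1b4 (4.72, not well above background) and Rab15 (6.30), at 0.90 above the mean of the other 6 arrays for Rab15, whereas Sbk2 was 0.30 below that mean (7.13 against 7.43). The correlation of Atp1b4 and Rab15 across the 7 V arrays was 0.847, and that of Sbk2 with Fam163a was -0.372. The lowest signal well above background differed between the V arrays, from 3.54 on LV replicate 1 to 5.00 on LV replicate 4. The correlations are a description only.

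**Figure D3:**
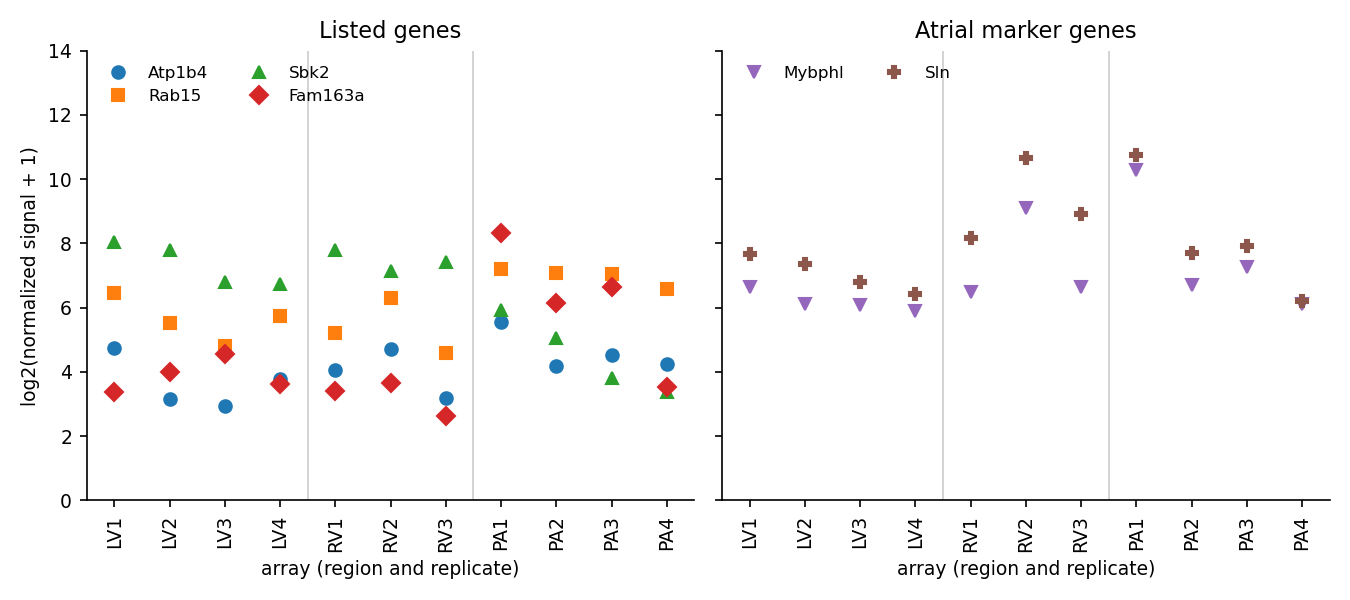
Log2(normalized signal + 1) of the 4 listed genes (left) and of the atrial markers Mybphl and Sln (right) on each LV, RV and PA array. Mybphl and Sln stand out on RV replicate 2 and PA replicate 1, and of the 4 listed genes Fam163a is raised most on PA replicate 1.

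PA held less of all 4 genes than SA or PV. Against SA the log2 difference was -8.52 for Atp1b4 (interval -9.25 to -7.78; adjusted p = 6.57e-14), -6.03 for Rab15 (-6.67 to -5.39; adjusted p = 1.45e-12), -8.36 for Sbk2 (-9.24 to -7.47; adjusted p = 1.32e-12) and -2.51 for Fam163a (-3.80 to -1.22; adjusted p = 0.00169) in the limma fit. In this comparison 24.6% of all genes were called lower in PA. Against PV the difference was -8.01, -6.04, -8.07 and -3.16 in the same order, with adjusted p = 2.17e-13, 1.78e-12, 2.79e-12 and 0.000206, and 23.7% of all genes were called lower. Atp1b4 was well above background on 2 and Sbk2 on 1 of the 4 PA arrays, so the sizes depend on the background. After normexp background correction the differences from SA were -6.33, -5.32, -6.18 and -1.52 and those from PV -5.90, -5.35, -5.90 and -2.09, all called. Both comparisons rest on the same PA arrays. The summed cardiomyocyte signal in SA and PV was more than 10 times that in PA. The smooth muscle sum was higher in PA, at 768690 to 903194, against 106903 to 135447 in SA and 129547 to 165713 in PV. The part of either list in the differences of PA from SA and PV was not tested.

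Fam163a had the smallest fall in PA of the 4 genes and the widest spread there. Its PA signals were 8.34, 6.16, 6.64 and 3.54, with a mean of 6.17 ± 1.99 (SD, n = 4), and replicate 4 was not well above background. Replicates 1, 3, 2 and 4, in falling order, had the same order for Mybphl (10.28, 7.26, 6.72 and 6.13), Sln and the atrial myosin light chain Myl7, whereas for Nppa replicate 2 (8.09) lay just above replicate 3 (7.97). On replicate 1 Fam163a was 1.53 below its LA mean, while Myl7 was 3.95, Mybphl 6.91, Nppa 6.95 and Sln 7.43 below theirs. Without replicate 1, Fam163a in PA differed from SA by -3.23 and from PV by -3.89, and without replicate 4 by -1.63 and -2.29, all called. Within the 2 rows of arrays the difference from SA was between -3.99 and -0.70, and within the 3 slides between -5.08 and -1.52. The neuronal genes did not share 1 order. Stmn2 was at 9.22, 10.13, 9.65 and 10.54 on PA replicates 1 to 4, opposite to Fam163a. Npy was at 12.67, 11.75, 11.24 and 10.52, highest on replicate 1 and lowest on replicate 4 as Fam163a was, and Nefm at 5.58, 7.15, 5.68 and 4.91.

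The relatives of the 4 genes had smaller differences between LA and V. In this contrast 35.8% of the other genes were called, 17.2% higher and 18.6% lower in LA. Of the 11949 genes well above background on every LA array, 7 reached a difference of 6. The choice of the 4 genes by that difference thus made a distance from their relatives likely beforehand, and it is given as a description. Of 16 tested genes of the X,K-ATPases and their FXYD regulators, 1 was higher in LA, 4 were lower and 11 were not called, with a median difference of -0.17 against -0.09 over all genes. Atp4a, the gastric proton pump subunit, fell by 1.27 (adjusted p = 0.00186, limma). Fxyd2, a modulator of the sodium pump, fell by 0.49 (adjusted p = 0.00104). The beta subunit Atp1b1 differed by 0.11 (adjusted p = 0.314) and Atp1b2 by -0.05 (adjusted p = 0.761), while Atp1b3 fell by 0.24 (adjusted p = 0.0237). The betaM partner Snw1 rose by 0.40 (adjusted p = 0.0115), and Smad7, an inhibitor of TGF-beta signaling whose transcription betaM and SNW1 have been linked to, rose by 0.36 (adjusted p = 0.0337).

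Of 25 tested RAB GTPases, 3 were higher in LA, 4 were lower and 18 were not called, with a median of -0.07. Rab27b, a GTPase of secretory vesicle docking, rose by 1.56 (adjusted p = 3.03e-05), Rab26 by 0.59 (adjusted p = 0.000172) and Rab3a, which acts at synaptic vesicles, by 0.55 (adjusted p = 0.0219). Rab12 fell by 0.38 (adjusted p = 0.000462), the early endosomal Rab5c by 0.32 (adjusted p = 0.00659) and Rab21 by 0.24 (adjusted p = 0.00449). Of 8 RAB regulators, 2 were higher in LA and 6 were not called. Rabif rose by 0.28 (adjusted p = 0.00547). Rep15, the effector of RAB15, differed by -0.25 (adjusted p = 0.486) and was well above background on 3 of 4 LA and 7 of 7 V arrays.

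The paralogs of the other genes went the opposite way. Sbk1 was at 8.86 in LA and 10.49 in V and fell by 1.62 log2 units in LA (SE 0.20, n = 4 and 7; adjusted p = 3.16e-06, limma), with no overlap of the arrays. Fam163b was at 4.88 in LA, where 3 of 4 arrays were well above background, and at 6.70 in V, so that it fell by 1.82 (SE 0.49, n = 4 and 7; adjusted p = 0.00644, limma). After normexp background correction Fam163b fell by 0.71 and was still called. Sbk3 had no named probe and was not analysed here. Neither paralog was called between SA and PV or between LV and RV. The plot of the relatives shows the distance of the 4 genes from their families, which the choice of the 4 genes largely fixed.

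**Figure D4:**
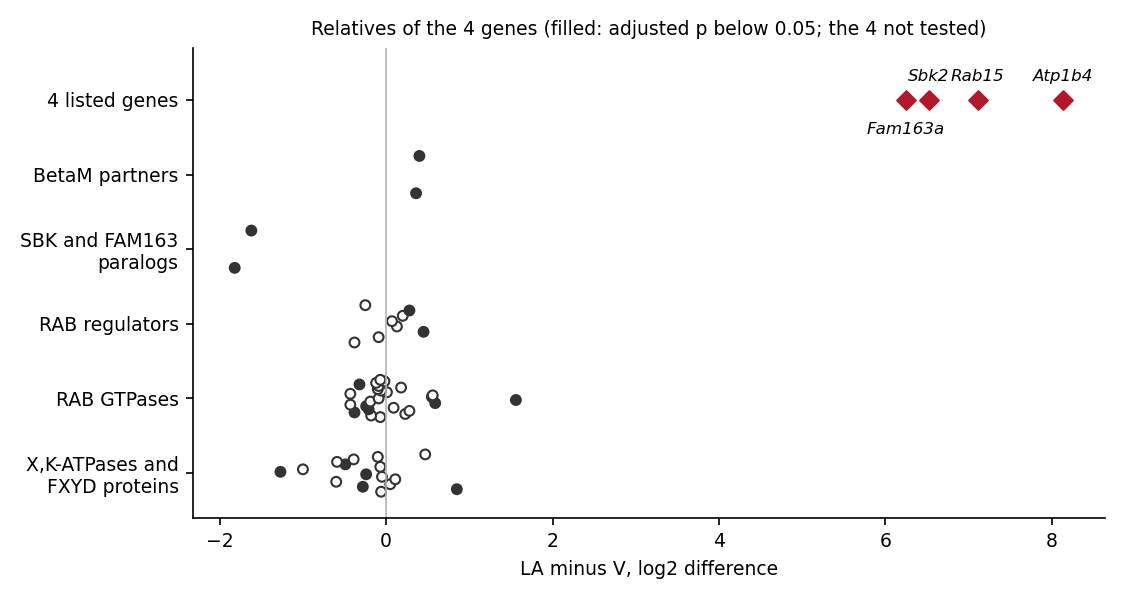
Log2 difference between LA and V for the tested genes of the families of Atp1b4, Rab15, Sbk2 and Fam163a, with filled circles at an adjusted p below 0.05 and diamonds for the 4 genes, which were not tested. The relatives lie between -1.82 and 1.56, and the 4 genes between 6.25 and 8.14.

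Over all 23 arrays Atp1b4 and Rab15 followed each other most closely. Their Pearson correlation of log2 signal was 0.993, and each was the gene most like the other among 16089. The values of the other pairs were 0.918 for Atp1b4 and Sbk2, 0.897 for Atp1b4 and Fam163a, 0.895 for Rab15 and Sbk2, 0.921 for Rab15 and Fam163a and 0.788 for Sbk2 and Fam163a. These values mostly restate the step between the atrial regions and V that chose the genes. Over the 12 arrays of LA, SA and PV alone, Atp1b4 and Rab15 had 0.679 and Sbk2 and Fam163a 0.468, whereas the other pairs were between -0.851 (Atp1b4 and Fam163a) and -0.512 (Rab15 and Sbk2).

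The genes most like Atp1b4 after Rab15 were Mybphl (0.991) and Spock2 (0.985), and those most like Rab15 after Atp1b4 were Nr1h3 (0.986) and Mybphl (0.984). Sbk2 was most like Rxfp1 (0.985), the gene of the relaxin receptor, Cited1 (0.984) and Podxl2 (0.984). Hmgn5 (0.956) and Nr2f2 (0.952), a transcription factor of atrial identity, were among the 3 genes most like Fam163a. The 5 genes most like the mean of the 4 were Mybphl (0.993), Spock2 (0.988), Sln (0.988), Stard10 (0.987) and Epha4 (0.984). Their differences between LA and V ranged from 4.05 for Spock2 to 10.48 for Mybphl, whereas Podxl2 and Hmgn5 reached a correlation above 0.95 with differences of 1.1 and 1.09. The heat map of the centred levels sets the 4 genes beside the 5 most like their mean.

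**Figure D5:**
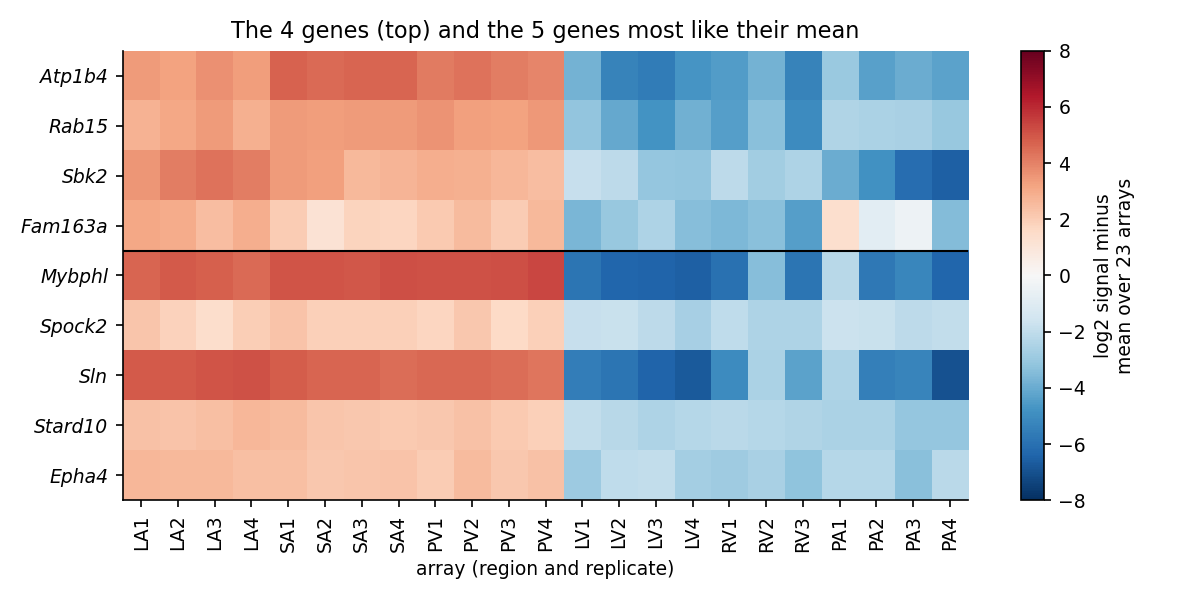
Log2 signal of each gene on each array minus its mean over the 23 arrays, for the 4 genes (above the line) and the 5 genes most like their mean (below), with red for higher and blue for lower. The LA, SA and PV arrays are red in every row and the LV and RV arrays blue, and Fam163a is above its mean on PA replicate 1.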

How the data were processed

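RNA of 6 rat heart and vessel regions was measured on 23 Agilent SurePrint G3 Rat GE arrays. Each deposited scanner file gives a signal intensity per spot, background-subtracted and detrended by Feature Extraction (version 11.0.1.1 per the labels). The deposited normalized intensities are the spot averages of these signals for each probe, scaled by the authors with 1 factor per array (0.881 to 1.516), and 99.6% to 99.8% of the probes of an array lay within 2% of that product. They were used for all results, and the scanner values as alternatives. The other deposited columns hold flags and probe names (unit: other). Whether a gene was well above background is Feature Extraction's flag, set on at least 50% of the spots of 1 of its probes.

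Of 45596 probes, 156 with a missing value were left out, and 21047 of the 45440 kept were named through accessions of the GRCr8 RefSeq table. The highest probe of a gene on each array, plus a pseudocount of 1, was taken to log2, and genes above 4 on at least 1 array were tested. SA and PV, PA and SA, PA and PV, and, with no test read for the 4 listed genes, LV and RV and LA and V were tested as contrasts of a limma model of all 6 regions (lmFit and eBayes, version 3.58.1, R 4.3.3) with Benjamini-Hochberg adjustment and a threshold of 0.05, and the spread of a gene was estimated jointly from the regions. The procedure was tested on simulated data, in which 57% of 200 genes with a log2 change of 1 were called between SA and PV. Python 3.11.15 drew the plots.

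The genes, gene lists and tests were chosen with earlier results of these data known. The genes named are the 4 listed, the called relatives with the largest changes (up to 3 in each direction) and all paralogs of Sbk2 and Fam163a, the 2 neighbours in rank on each side, the genes most correlated with each of the 4 (3 each) and with their mean (5), and markers on which a result turns. The other relatives named were chosen after their values were seen. Some genes that this rule names are counted but not reported here by name. Arrays lay on 3 slides in 2 rows. Of the probes, 72.7% to 79.8% were well above background on the 11 arrays of row 1 and 58.6% to 69.4% on the 12 of row 2, where the lowest such signal was 4.15 to 5.47 against 3.10 to 4.14. No spot was saturated, and the number of arrays limits the precision. Sequences were read from RefSeq's promoter table. Alternatives were other scalings, background correction (normexp with an offset of 50, then quantile normalization), pseudocounts, filters, probes, blocks, priors and arrays left out.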

Additional observations from a re-analysis of the deposited data

How the results depend on the processing

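Leaving out the arrays 1 at a time gave 176 to 566 genes called between SA and PV (562 with all arrays; 176 without PV replicate 4, 245, 298 and 251 without SA replicates 1, 2 and 3), 41 to 105 between LV and RV (84 with all; 52 without LV replicate 2, 46 and 41 without RV replicates 1 and 2), 8267 to 8662 between PA and SA, 8070 to 8641 between PA and PV and 5024 to 5800 between LA and V. With only the arrays compared in the fit, 67 genes were called between SA and PV and 13 between LV and RV, since fewer arrays estimate the spread. For LV and RV, 137 were called with the filter for genes clearly detected throughout a region, 144 with a trend in the prior variance and 44 without PA replicate 1 and RV replicate 2 together, a setting added after the data were seen. Differences near 0 changed sign. For Atp1b4 between LV and RV the value ranged from -0.74 to 0.02 with 1 array left out and was 0.41 with dim arrays raised to the detection floor, 0.02 without RV replicate 2 and 0.02 without both arrays. For Rab15 between SA and PV it ranged from -0.06 to 0.05 and was 0.05 without PV replicate 1, 0.01 without PV replicate 4 and 0.01 without SA replicate 2, and between LV and RV it ranged from -0.12 to 0.74 and was -0.00 without LV replicate 1 and -0.12 without RV replicate 3. For Sbk2 between LV and RV it ranged from -0.34 to 0.10 and was 0.01 after normexp, 0.07 without LV replicate 3, 0.10 without LV replicate 4 and 0.07 without RV replicate 1. With normexp, its offset of 50 and quantile normalization together, the difference between LA and V was 5.29 for Atp1b4, 5.56 for Rab15 and 3.40 for Fam163a. A pseudocount of 16 gave 7.05 for Atp1b4 and 5.09 for Fam163a. The cause was not tested.

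With the replicate number as a block, Sbk2 between LV and RV was 0.04, and 466 genes were called between SA and PV, 79 between LV and RV, 8534 between PA and SA, 8457 between PA and PV and 5615 between LA and V. Same-numbered arrays correlated between -0.15 and 0.29, and not every pair exceeded 0.1, so the numbers were not taken as a pairing, although the same-numbered SA and PV arrays lay on the same slide and row. For LV and RV 1 of the RV numbers differs between the labels and the study's own listing. The block changed no call of the 4 genes between SA and PV, PA and SA or PA and PV.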

Other observations

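The nearest protein-coding genes on the chromosome did not share the size of the difference between LA and V, by which the 4 genes had been chosen and which few genes reached. Beside Rab15, Gpx2, a glutathione peroxidase, was at 6.46 in LA and 4.28 in V, and Fntb, a subunit of protein farnesyltransferase, at 10.76 and 9.60. Beside Atp1b4, Tmem255a was at 7.97 in LA and 7.66 in V, and beside Fam163a, Tor1aip2 was at 11.28 and 10.95. Ssc5d, next to Sbk2, was at 8.62 in LA and 9.02 in V. These neighbours were chosen by position in the GRCr8 table and were not tested. Tex13c3 beside Atp1b4 and Sbk3 beside Sbk2 had no named probe, and Tdrd5 beside Fam163a was at 2.48 in LA and 2.97 in V.

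In the 20 sets of 4 arrays, for 4 genes in 5 regions, no array lay far from the other 3 by Dixon's criterion (gap over range above 0.829). RV, with 3 arrays, was not examined in this way.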
